A study of Glycine max with 12 samples.

Results

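In roots of the soybean material OX3, 52 genes stood higher at 50 than at 5 µM MnSO4. In the material W their mean level, on raw library totals, was nearly the same at both concentrations. The 52 genes were selected on their CPM, the count of a gene per 1000000 counts of its library, from the 43517 genes of a read count table. A gene needed 2 CPM or more on average over the 12 libraries, which 25399 genes had, and the lowest OX3 library at 50 µM had to lie above the highest OX3 library at 5 µM. It also needed a log2 ratio of the OX3 means, each with 0.5 CPM added, of at least 1, a 2-fold difference. The same ratio in W had to lie between -0.3 and 0.3. The genes were thus chosen by their ratios in OX3 and in W, and counts of test calls on these contrasts or on their difference restate that choice.

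Root RNA was sequenced in 12 libraries, with 3 per material and MnSO4 concentration. The materials are labelled W and OX3, and the count table heads them WT and OX. Roots labelled control had 5 µM MnSO4 and those labelled Mn had 50 µM, so that all 4 groups received some manganese. The labels name no cultivar, plant age, length of treatment or altered gene, and do not say whether OX3 is a single line or whether libraries came from separately grown plants. Total counts ranged from 15175866 to 19408318 per library. Group means are given ± SD over the 3 libraries of a group (n = 3).

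Manganese is an essential micronutrient of plants, needed by the oxygen-evolving complex of photosystem II and by a superoxide dismutase of mitochondria. Roots take it up through divalent metal transporters, and metal tolerance proteins carry excess manganese into vacuoles or other compartments. In excess, as on acid or waterlogged soils, it is toxic, and it competes with iron and other divalent metals for uptake. None of the 43517 identifiers could be paired with a gene name (0 matched), so the genes are given by identifier and without a role. In an identifier such as Glyma.07G256300, the digits before G name the chromosome and those after it follow gene order. Soybean descends from an ancient polyploid and holds many genes as similar copies, and the sources used here do not say how shared reads were assigned. The genes named below, other than the leading pair, were chosen after their values were seen.

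Of the 25399 genes with 2 CPM or more on average, called expressed genes from here on, 1250 (4.92%) had OX3 groups that did not overlap with the 50 µM libraries on top, and 508 (2%) of these also reached the log2 ratio of 1. Among these 508 genes the W ratio was above 0.3 in 449, of which 247 reached 1, and below -0.3 in 7. The other 52, or 0.205% of the expressed genes, were the genes described here. Genes higher in OX3 at 50 µM were thus mostly higher in W as well, and the 52 formed the small part of them with level W means.

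**Figure D1:**
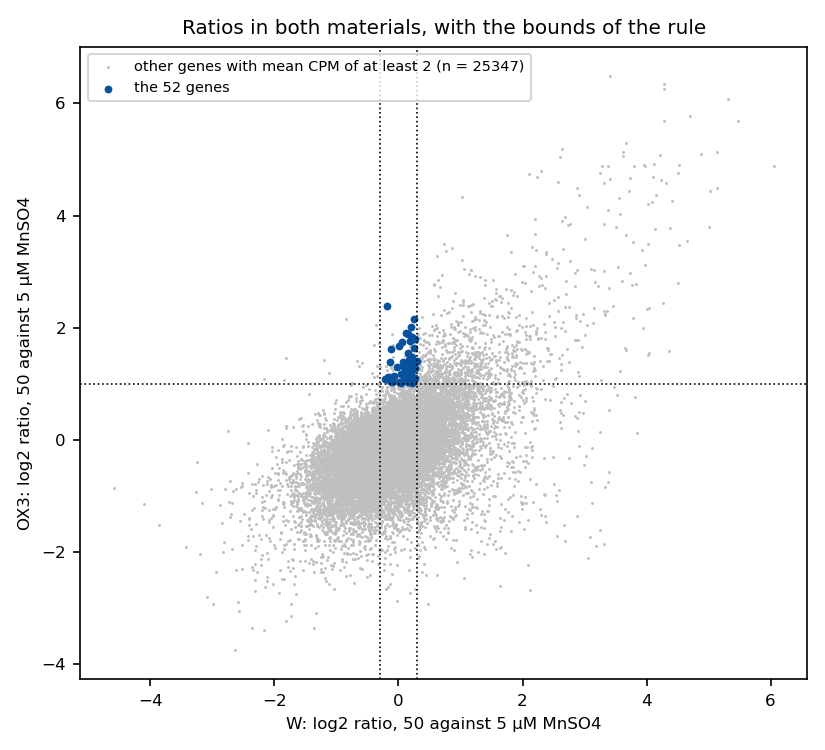
Log2 ratio of mean CPM at 50 against 5 µM MnSO4 in W (horizontal axis) and in OX3 (vertical axis) for each expressed gene. Blue points are the 52 genes, grey points all others, and dotted lines the bounds of 1, -0.3 and 0.3; grey points inside the bounds had OX3 groups that overlapped.

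The words "only in OX3" hold for the means and not for a tested difference in response. The contrasts for Mn in OX3, for Mn in W and for the difference of these responses all rest on values the rule used. Their counts are given beside the shares over all genes as a description, and any excess or lack against those shares is fixed by the rule. Across 31841 genes tested with edgeR's quasi-likelihood test, 0 of the 52 had an adjusted p under 0.05 for Mn in OX3, where no gene did (0%). At an unadjusted p under 0.05 and higher at 50 µM were 52 of 52, against 7.22% of all genes. DESeq2 called 34 of the 52 higher in OX3, against 2.12% of its 31748 genes. For the difference of the responses in OX3 and W, 0 of the 52 passed in edgeR, where 1 gene of all did (0.00314%), and 0 passed in DESeq2 (0.257% of all genes). At an unadjusted p under 0.05 that difference was positive in 25 of the 52 in edgeR, against 3.56% of all genes. With 1 library left out, that p was under 0.05 in 13 genes without W replicate 4 at 5 µM or W replicate 2 at 50 µM, in 16 without OX3 replicate 3 at 5 µM, and in 42 without W replicate 2 at 5 µM. With the replicate number as a block it was under 0.05 in 14. No share over all genes was computed for these refits. Their counts do not set the 52 apart from other genes. In W, 0 of the 52 passed in edgeR (0.00314% of all genes), in DESeq2 (5.41%), or at an unadjusted p under 0.05 in edgeR (18.6%), as the bound on the W ratio favours. The last count was 8 without W replicate 4 at 5 µM, again with no share over all genes computed. The level W means were known with limited precision: in 40 of the 52 genes the 95% interval of the log2 fold change in W reached 1. It reached the OX3 estimate of the same gene in 3, where the rule itself holds the estimates apart. No share over all genes was computed for these intervals.

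Within OX3, the ratio of means ran from 2.01-fold to 5.2-fold, with a median of 2.44-fold. It was at least 4-fold in 3 genes, between 3-fold and 4-fold in 10 and under 3-fold in 39. The gap between the groups was often narrow. The lowest library at 50 µM was more than 1.5 times the highest at 5 µM in 15 genes, and less than 1.1 times in 10. Mean levels over all libraries ran from 2.17 to 745 CPM, with 19 genes under 10 CPM and 10 at 100 CPM or more.

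**Figure D2:**
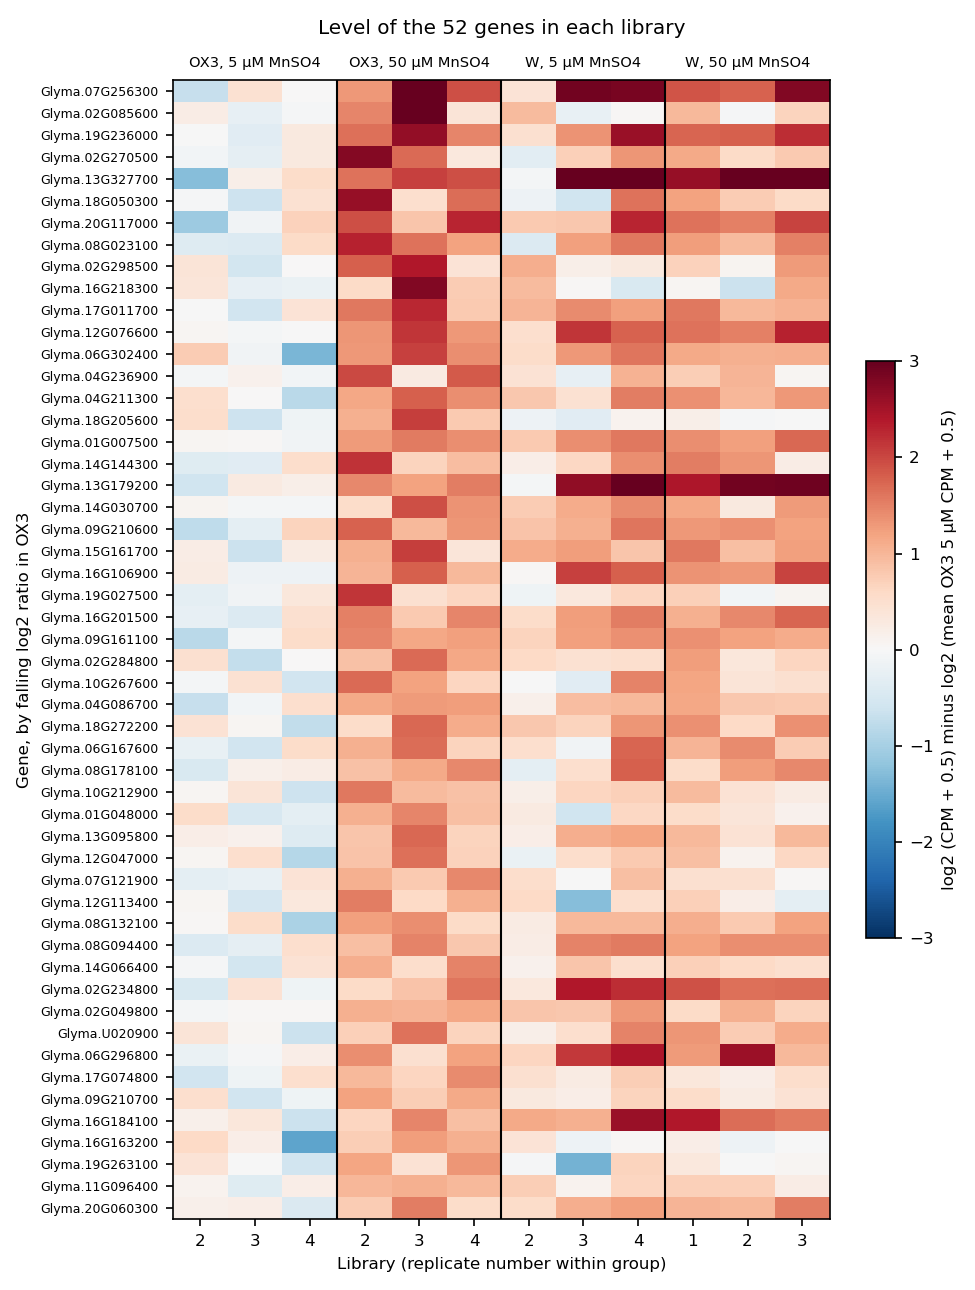
Level of the 52 genes (rows, by falling ratio in OX3) in the 12 libraries (columns, in 4 groups), as log2 of CPM plus 0.5 relative to the mean of the OX3 libraries at 5 µM. Red is higher and blue lower: the OX3 libraries at 50 µM are red throughout, as the rule requires, and most W libraries are red at both concentrations, with W replicate 2 at 5 µM paler.

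The gene with the largest ratio in OX3 was Glyma.07G256300. At 5 µM its level in OX3 was 1.65, 4.22 and 3.01 CPM in replicates 2, 3 and 4, and at 50 µM it was 8.03, 31.8 and 12.7 CPM. In W it was 4.07, 25.3 and 24.2 CPM in replicates 2, 3 and 4 at 5 µM and 12.3, 11.3 and 23.4 CPM in replicates 1, 2 and 3 at 50 µM. The OX3 groups did not overlap, whereas W replicate 2 at 5 µM lay with the OX3 controls and the other W controls lay with the highest libraries of the series. Its level W ratio of -0.18 on the log2 scale was therefore a mean over very unequal controls, and without W control replicate 2 it was -0.64.

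Second was Glyma.02G085600, at 4.02, 2.75 and 3.27 CPM in the OX3 controls and 10.1, 35.3 and 4.56 CPM in OX3 replicates 2, 3 and 4 at 50 µM. Its W libraries lay between 2.82 and 7.09 CPM. The W means, 4.38 ± 2.2 CPM at 5 µM and 5.31 ± 1.9 CPM at 50 µM, lay nearer the OX3 control mean than the other OX3 mean. In OX3, 1 library, replicate 3 at 50 µM, carried most of the difference. Scaled by TMM or by DESeq2 size factors, the gene no longer met the rule. OX3 replicate 4 at 50 µM exceeded the highest OX3 control only 1.13 times.

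The narrowest groups with a clear gap belonged to other genes. Glyma.01G007500 was at 8.66, 8.55 and 7.65 CPM in the OX3 controls and at 20.9, 25.6 and 22.6 CPM in OX3 at 50 µM, with group means of 8.28 ± 0.56 and 23 ± 2.4 CPM. In W it was at 21 ± 5.8 CPM at 5 µM and 23.8 ± 4.3 CPM at 50 µM. The OX3 controls thus stood apart below the other 9 libraries, which overlapped each other.

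Glyma.02G049800 had the same form at a higher level, with OX3 controls at 34.4, 36.9 and 37 CPM and OX3 libraries at 50 µM at 76, 73.3 and 81.2 CPM. Its W controls were at 64.2, 63.5 and 90.4 CPM, and its W libraries at 50 µM at 54.4, 75.5 and 57.2 CPM. All 6 W libraries lay above all 3 OX3 controls.

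Glyma.11G096400 was at 111, 80 and 117 CPM in the OX3 controls and at 205, 217 and 202 CPM in OX3 at 50 µM. In W its libraries ran from 111 to 171 CPM, within the gap or below it, so that it lay between the OX3 levels rather than beside either.

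The gene with the highest mean CPM of the 52 was Glyma.04G236900. Its OX3 controls were at 413, 470 and 407 CPM, and OX3 at 50 µM was at 1702, 515 and 1546 CPM in replicates 2, 3 and 4. OX3 replicate 3 was close to the controls and the other libraries of its group lay far above. The W libraries ran from 362 to 889 CPM. Per length, as mean FPKM over the 12 libraries, Glyma.13G179200 was highest at 194, and the genes ranged down to 0.874.

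**Figure D3:**
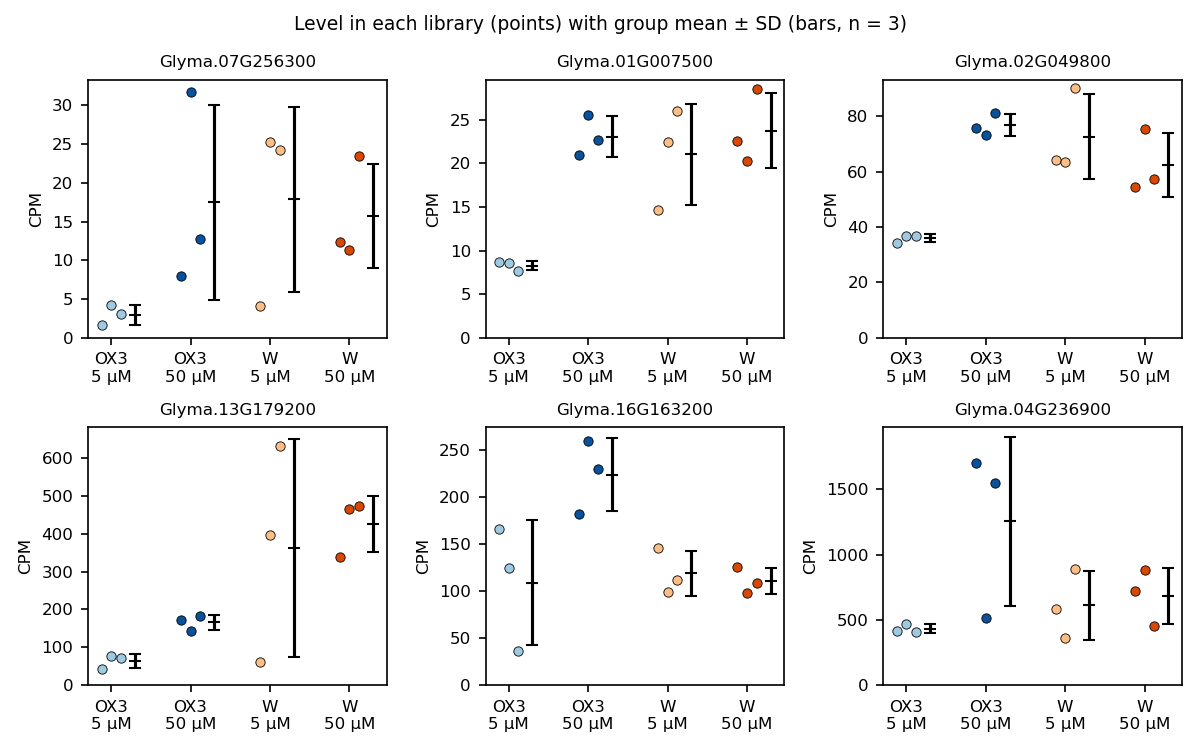
CPM of 6 of the genes in each library (points, replicate order from left to right) with the group mean ± SD (n = 3) beside them, each axis starting at 0. Glyma.01G007500 and Glyma.02G049800 have tight OX3 groups with all W libraries above the OX3 controls. Glyma.16G163200 has W near the OX3 control mean, and Glyma.13G179200 has W above both OX3 groups except for W replicate 2 at 5 µM.

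The rule put no bound on the level of W, but it set the OX3 means apart, which favours a W mean between them. Counts of genes by W level are given without a share over all genes and are not read as particular to the 52. The mean of the 6 W libraries lay between the OX3 means in 41 of the 52 genes, above the OX3 mean at 50 µM in 10 and below the OX3 mean at 5 µM in 1. On a scale from 0 at the OX3 mean at 5 µM to 1 at the OX3 mean at 50 µM, the median position of W was 0.638. W was nearer the upper OX3 level in 30 genes and nearer the lower one in 22. With libraries scaled by TMM the median position was 0.735, with 39 between, 13 above and 0 below.

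The genes with W above both OX3 levels included 5 whose position was over 2. Glyma.13G179200 was at 41.3, 75.6 and 70.7 CPM in the OX3 controls and 171, 144 and 182 CPM in OX3 at 50 µM. In W it was at 59.6, 397 and 634 CPM in replicates 2, 3 and 4 at 5 µM and 340, 466 and 473 CPM at 50 µM. W replicate 2 at 5 µM lay within the OX3 controls, and the other 5 W libraries lay above all OX3 libraries. Glyma.13G327700 followed it across the 12 libraries with the highest correlation of any pair (r = 0.979 on log2 CPM, a description over libraries that share their groups). Its W controls were at 3.31, 33.2 and 48.6 CPM, and its OX3 means were 3.47 ± 2.1 and 14.2 ± 2.1 CPM. The others were Glyma.16G184100, Glyma.06G296800 and Glyma.02G234800.

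At the other end, 8 genes had W within the lowest 0.2 of the scale or below it. Glyma.16G163200 was at 166, 124 and 36.4 CPM in the OX3 controls and 182, 260 and 230 CPM in OX3 at 50 µM, and its W libraries ran from 97.9 to 146 CPM. Glyma.19G263100 was at 356, 265 and 180 CPM and then 610, 359 and 670 CPM in OX3, with W at 261 ± 163 CPM at 5 µM and 293 ± 36 CPM at 50 µM. Glyma.18G205600 was the 1 gene with W below the OX3 controls on average, at 2.67 ± 0.5 and 3.07 ± 0.3 CPM against 2.95 ± 1.4 CPM in the OX3 controls and 8.76 ± 4.7 CPM in OX3 at 50 µM. In these 3 genes the OX3 mean at 50 µM stood above the other 3 group means, although 1 W control of Glyma.19G263100, at 425 CPM, lay within the range of that OX3 group.

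**Figure D4:**
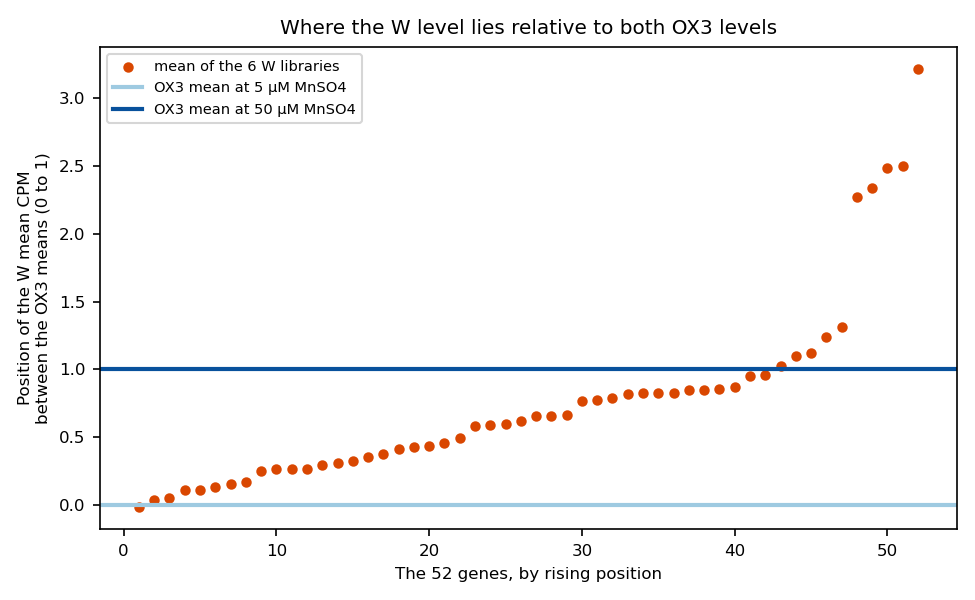
Position of the mean of the 6 W libraries for each of the 52 genes (points, in rising order), on a scale where 0 is the OX3 mean CPM at 5 µM and 1 the OX3 mean at 50 µM. Most points lie between the lines, which the rule favours by setting the OX3 means apart. A further 10 lie above the upper line, with 5 of them over 2, and 1 lies just below 0.

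Compared within a concentration, the materials differed at 5 µM more than at 50 µM, a direction that the low OX3 controls in the rule favour. At 5 µM the fitted log2 difference of OX3 from W was negative in all 52 genes, with a median of -1.19 against 0.05 over all genes tested. All 3 W controls lay above all 3 OX3 controls in 16 of the 52, against 3.68% of the expressed genes. At 50 µM the median difference was 0.20 against 0.02, with 30 genes higher and 22 lower in OX3. There the OX3 libraries lay wholly above W in 9 genes (15.6% of all) and wholly below in 4 (5.14% of all), counts near the background.

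The difference between the materials averaged over both concentrations is a contrast that the rule did not name. With 3 libraries in each group it is orthogonal to the Mn contrasts on the log scale. The rule nevertheless used the same libraries, and their spread differed between groups. The counts below are therefore not independent of the choice of genes. Over the 52 genes the median log2 difference of OX3 from W was -0.54, against 0.03 over all 31841 genes, and 41 genes were below 0 and 11 above. In edgeR's test 0 of the 52 passed after adjustment over all genes, of which 47 did (0.148%). At an unadjusted p under 0.05, 19 of the 52 were lower in OX3, against 5.95% of all genes, and 1 was higher, against 5.62%. DESeq2 called 7 of the 52 lower in OX3, against 1.2% of its 31130 genes. The smallest adjusted p among the 52 in edgeR, 0.14, belonged to Glyma.16G184100, with a log2 difference of -1.69 (SE 0.35). Its levels were 1.87 ± 0.77 and 4.35 ± 1.5 CPM in OX3 at 5 and 50 µM and 7.63 ± 5.2 and 8.52 ± 3 CPM in W. The 1 higher gene was Glyma.18G205600, at 0.64 (SE 0.27). For the leading pair the difference was -1.45 (SE 0.51, adjusted p 0.33 in edgeR) for Glyma.07G256300 and 0.48 (SE 0.40, adjusted p 0.63 in edgeR) for Glyma.02G085600.

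W control replicate 2 bore on this comparison. Without it edgeR called 10 of the 52, all lower in OX3, among 579 genes in all (1.79% of 32266). With unequal groups the contrast is no longer orthogonal to Mn in W, which the rule bounded. W control replicate 2 was also the lowest W control in 30 of the 52 genes, where leaving it out raises the W mean. The smallest adjusted p in edgeR was then that of Glyma.13G179200, 0.0069, at a log2 difference of -2.43 (SE 0.27). Without any one of the other 11 libraries the count stayed at 0.

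Libraries within a group differed least in W at 50 µM. Between the highest and the lowest library of a group, the median log2 range over the 52 genes was 1.05 in the W controls, 0.97 in the OX3 controls, 0.92 in OX3 at 50 µM and 0.56 in W at 50 µM. Over all expressed genes these medians were 0.76, 0.67, 0.61 and 0.57. The range reached 1 in 27 of the 52 genes in the W controls (35.3% of all genes), in 22 in the OX3 controls (28.2%), in 21 in OX3 at 50 µM (25%) and in 7 in W at 50 µM (21.5%). W replicate 2 was the lowest W control in 30 of the 52 genes, against 18.6% of all genes. With TMM scaling it was the lowest in 41 of the 52, against 40.7% of all genes. It lay at or below the highest OX3 control in 27 genes, W replicate 3 in 19 and W replicate 4 in 5. No share over all genes was computed for these 3 counts, so they are not read as particular to the 52.

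Relative to the mean of the OX3 controls, the median log2 level of the 52 genes was 0.46 in W control replicate 2, 0.77 in replicate 3 and 1.32 in replicate 4. In the W libraries at 50 µM it was 1.15, 0.86 and 1.07 in replicates 1, 2 and 3, and in OX3 at 50 µM it was 1.20, 1.46 and 1.14 in replicates 2, 3 and 4. On the same scale the median of all expressed genes ran from -0.43 to 0.12 over the 12 libraries. W control replicate 4 thus stood as high as the OX3 libraries at 50 µM, and W control replicate 2 stood nearest the OX3 controls. The W ratio of the 52 had a median of 0.16 on raw library totals. Leaving out W control replicate 2 gave -0.07, and leaving out replicate 4 gave 0.33, where 28 of the 52 genes exceeded 0.3. With all 12 libraries scaled by TMM, the median was 0.25 (-0.16 to 0.42), and 12 of the 52 exceeded 0.3. Scaled by DESeq2 size factors it was 0.27, and 16 exceeded 0.3. What set the W controls apart from each other was not tested.

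**Figure D5:**
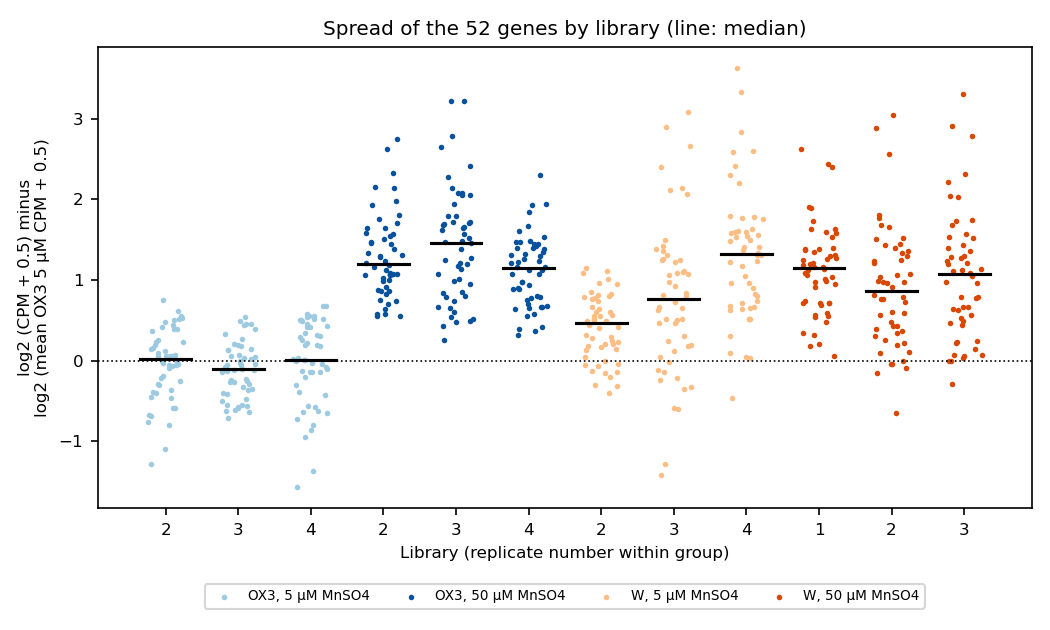
Level of each of the 52 genes (points) in each library, as log2 of CPM plus 0.5 relative to the mean of the OX3 libraries at 5 µM (dotted line), with the median of the 52 as a black line. The medians of the W controls differ, at 0.46, 0.77 and 1.32, while those of the OX3 libraries at 50 µM lie between 1.14 and 1.46.

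The OX3 libraries at 50 µM differed in which genes they held highest. Replicate 3 was the highest of its group for 29 of the 52 genes, replicate 2 for 14 and replicate 4 for 9, where over all genes the shares were 43%, 20.1% and 36.8%. Replicate 4 was the lowest of the group for 21 genes (27.7% of all genes), replicate 3 for 17 (24.7%), among them Glyma.04G236900, and replicate 2 for 14 (47.5%). Within groups the genes did not move as 1 block. After group means were removed, the median correlation between pairs of the 52 genes was 0.19, and 461 of the 1326 pairs were negative. These correlations across the 12 libraries are given as a description, and no such value was computed for other genes.

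The members varied in how much single libraries decided their place. When the rule was applied again without each library in turn, 2 of the 52 genes met it in all 12 cases and also with both other scalings, Glyma.17G011700 and Glyma.09G161100. Glyma.17G011700 was at 3.04, 1.9 and 4.22 CPM in the OX3 controls, at 10.1, 16.7 and 5.63 CPM in OX3 at 50 µM, and at 7.84 ± 1.2 and 7.85 ± 2.1 CPM in W. Glyma.09G161100 was at 8.19, 14 and 21.7 CPM in the OX3 controls, at 41, 33.5 and 35 CPM in OX3 at 50 µM, and at 32.3 ± 7.9 and 35.1 ± 3.1 CPM in W. Both had W means between the OX3 means at each concentration. With TMM scaling 40 of the 52 still met the rule and 81 genes did in all.

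Just inside the bound on the OX3 ratio lay Glyma.20G060300, at a log2 ratio of 1.01, and just outside it Glyma.08G004600, at 0.99. Just inside the upper bound on the W ratio lay Glyma.14G144300, at 0.2999, and just outside it Glyma.12G216000, at 0.3017. On the lower side the nearest member was Glyma.02G049800, at -0.22, and the nearest gene beyond the bound was Glyma.15G131400, at -0.3018. Nearest the level minimum were Glyma.02G270500 at 2.17 CPM and, outside it, Glyma.07G173100 at 1.81 CPM. The genes were thus part of a continuum, with 41 of the 52 W ratios above 0.

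By position, the 52 genes lay on 18 of the 20 numbered chromosomes, with none on chromosomes 3 and 5 and 1 on unplaced sequence. Chromosome 2 held 6 (0.425% of its expressed genes) and chromosome 16 held 5 (0.554%), against 0.205% over all. Adjacent in the order of expressed genes were Glyma.09G210600 and Glyma.09G210700. In OX3 they were at 54.7 ± 29 and 26.7 ± 10 CPM at 5 µM and at 144 ± 39 and 55.3 ± 9.1 CPM at 50 µM. In 13 of the 52 genes a flanking gene had a log2 ratio in OX3 of at least 1, which holds for 7.55% of expressed genes. These 13 include the adjacent pair, of which each counts the other through the ratio that the rule required. Whether a flanking gene is a copy of its neighbour or overlaps it was not tested, and the counts do not show whether reads were shared. The median gene length, recovered from the FPKM values, was 2304 bases against 1921 over all expressed genes.

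By the same rule with the materials exchanged, 111 genes were higher at 50 µM in W with level means in OX3. For these the median position of the OX3 mean between the W levels was 0.383, with 71 of 111 genes nearer the lower W level, beside 22 of 52 for the genes described here. This difference was not tested. A further 201 genes met the ratio and the separation of groups in both materials.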

How the data were processed

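RNA of soybean roots was measured in 12 libraries. The authors deposited read counts per gene and FPKM values. Per the submitters' processing notes, HTSeq 0.6.0, HISAT2 2.1.0, Bowtie2 2.2.3, TopHat2 and CASAVA were used, without stated roles. The sources used here do not give strand settings or the handling of shared reads. Identifiers carry the annotation name Wm82.a2.v1, left off here, and 0 matched the 59048 genes of the reference table. Lists by product description, including cell type markers, could therefore not be applied, and no sequence is shown.

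CPM used raw column totals. Tests used edgeR 4.0.16 (R 4.3.3): filterByExpr, TMM factors from 0.859 to 1.25, 1 quasi-likelihood model of the 4 groups, two-sided, with Benjamini-Hochberg adjustment over 31841 genes and a threshold of 0.05. All 52 genes passed the filter. As nothing says that libraries are separate plants, the spread behind a p-value may be technical. Alternatives were DESeq2 1.42.0, limma 3.58.1, other scalings and filters, a replicate block and leaving out each library. The genes and lists were chosen with earlier results of these data known. The naming rule allowed the 2 genes with the largest OX3 ratio where no name was found.

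On simulated counts, edgeR recovered 28% of 2-fold and 94% of 4-fold changes for the averaged material difference (31297 genes). For Mn in OX3 it recovered 4% and 58% (31289 genes), and for the interaction 0% and 14% (31238 genes). Each contrast had a single run with 50 genes per fold, drawn independently for each gene and library at the fitted dispersions. Libraries did not deviate together there as the real ones do, so these shares need not hold for the real counts. A count of 3 equals 0.155 to 0.198 CPM depending on the library (counting error only), and the lowest count of any of the 52 genes in a library was 8.

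Same-numbered W and OX3 libraries deviated together from their group means across genes, with correlations of 0.261, 0.445 and 0.272 at 5 µM and 0.159 and 0.303 at 50 µM, so numbers were taken as possible pairs between materials. Between 5 and 50 µM the correlations were -0.186, -0.021 and -0.0755 in OX3 and 0.0031 and 0.274 in W, not all over 0.1. They gave no ground for pairs there. The replicate block still joined equal numbers across both materials and both concentrations, so it was not limited to the possible pairs between materials. No fit used those pairs alone, and the main p-values of the material difference left them out.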

Additional observations from a re-analysis of the deposited data

How the results depend on the processing

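The number of genes meeting the rule, 52, depended on its settings. It was 112 with the W ratio within 0.5, 90 when the OX3 groups could overlap, and 81 with TMM scaling or with DESeq2 size factors, of which 40 and 36 were among the 52. Leaving out single libraries gave between 31 (without W replicate 4 at 5 µM) and 155 (without OX3 replicate 4 at 5 µM), also 126 without OX3 replicate 2 and 89 and 82 without W replicates 2 and 3 at 5 µM, and 87 without OX3 replicate 4 at 50 µM. Fewer OX3 controls make separation of the groups easier by construction. Other pseudocounts, level minimums and a W ratio within 0.2 kept it within 1.5 times.

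No gene of the 52 was called for the interaction or for Mn in W under any setting run. Over all genes DESeq2 called 72 and 1616 for these contrasts, and the other settings at most 1 and 9. For Mn in OX3 DESeq2 called 34 of the 52, among 1095 genes in either direction. Without single libraries the count ran from 0 to 1. The 1 was Glyma.01G007500 without W replicate 2 at 5 µM, among 6 of 32266 genes called. For the averaged material difference DESeq2 called 7 and the range was 0 to 10. Its median over the 52 ran from -0.70 to -0.34 without single libraries. With the replicate block it was -0.52, and with the block no member was called for it, for Mn in OX3, for Mn in W or for the interaction. Number 1 occurs once, so that W library drops out of the blocked fit. For Glyma.02G085600 the averaged difference of 0.48 ran from -0.054 (without OX3 replicate 3 at 50 µM), where the sign reversed, to 0.68 (without OX3 replicate 4 at 50 µM). The causes were not tested.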

Other observations

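Some genes beside the 52 in chromosome order, not chosen by the rule, also had large ratios in OX3. Glyma.10G267700, next to the member Glyma.10G267600, had a log2 ratio of 1.32 in OX3 and -0.35 in W at a mean of 68.9 CPM, just past the bound on the W side. Glyma.18G205500, next to Glyma.18G205600, had 1.91 in OX3 and 1.04 in W. Glyma.06G302300, next to Glyma.06G302400, went the other way, with -2.73 in OX3 and 0.19 in W, while the OX3 means of Glyma.06G302400 were 3.52 ± 2.6 CPM at 5 µM and 11.9 ± 3.8 CPM at 50 µM (SD, n = 3). These neighbours were picked after their values were seen, and over all 104 flanking positions the median log2 ratio in OX3 was -0.06.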
